A study of Bos taurus with 12 samples.

Results

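The genes described here move calcium, bind it or signal its level: the plasma membrane calcium pumps ATP2B1 and ATP2B2, the Golgi pump ATP2C1, the endoplasmic reticulum pump ATP2A2, the cytosolic protein regucalcin (RGN), parathyroid hormone-like hormone (PTHLH), the stanniocalcins STC1 and STC2 and the calcium-sensing receptor CASR. Every probe set with one of these as its only gene symbol was taken. That gave 14 of the 24128 probe sets of the array and 8 of the 9155 genes with a probe set of 1 symbol, and 0 for STC2, which was not analysed here. A gene's probe sets are told apart by their brightness over all arrays. The values compared are log2 expression in intralobular stroma and in epithelium of the same cow, so a difference of 1 on this scale is a doubling.

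The tissue came from 6 dry Holstein cows, biopsied 3 weeks prepartum, with lactation numbers 3 and 2 in the labels for cows 1 and 2 and number 1 for the other 4, although the methods call all of them multiparous. Pieces of each biopsy were cultured for 2 h with insulin, hydrocortisone and BrdU, a thymidine analogue taken up by dividing cells, before freezing, so both tissues carried the same treatment, and no uncultured or lactating gland is part of the comparison. Intralobular stroma and epithelial cells were then cut from sections by laser capture microdissection (LCM), with vessels and obvious immune cells avoided in the stroma. Lysates were pooled from 2 slides for epithelium and from 4 for stroma, a difference in preparation that cannot be told apart from tissue. The RNA was strongly amplified before hybridization. This gave 12 arrays, 6 per tissue, and each cow gave 1 array of each.

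Calcium pumps work against the channels that let calcium into the cytosol. The ATP2B pumps push calcium out through the plasma membrane, ATP2A2 (SERCA) refills the endoplasmic reticulum and ATP2C1 (SPCA) fills the Golgi, through which milk calcium is secreted with casein. In lactating mice ATP2B2 is the main pump of the apical membrane, and CASR on mammary epithelium restrains the release of PTHLH, a hormone that draws calcium from bone and also signals to mesenchyme in the embryonic mouse gland.

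RGN was lower in stroma and STC1 was higher in stroma, and these were the only members that passed the test. None of the pumps passed: ATP2B1 and ATP2A2 were bright in both tissues, and ATP2C1 lay near the middle of the arrays. ATP2B2 and CASR lay below the median of every array in both tissues, and PTHLH lay above it on 4 of 12 arrays. Members were called at an adjusted p under 0.05 (limma, Benjamini-Hochberg) with the cow as a block, among the brighter probe sets of the array. Of the 9 member probe sets that were bright enough to be tested, which stand for 4 genes, 2 were called (22.2%), against 9.29% of all tested probe sets. STC1 was among the tested probe sets only through its stromal values, so its entry to the test was not independent of the tissue, and the share called is given as a description. By direction, 1 was higher in stroma, as were 4.54% of all tested probe sets, and 1 was lower, as were 4.76%. The other 5 were read from a fit over all probe sets with no filter and are named below as outside; in that fit 3.38% of probe sets and 0 of these 5 were called (limma, and 0 of them had an unadjusted p under 0.05).

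**Figure D1:**
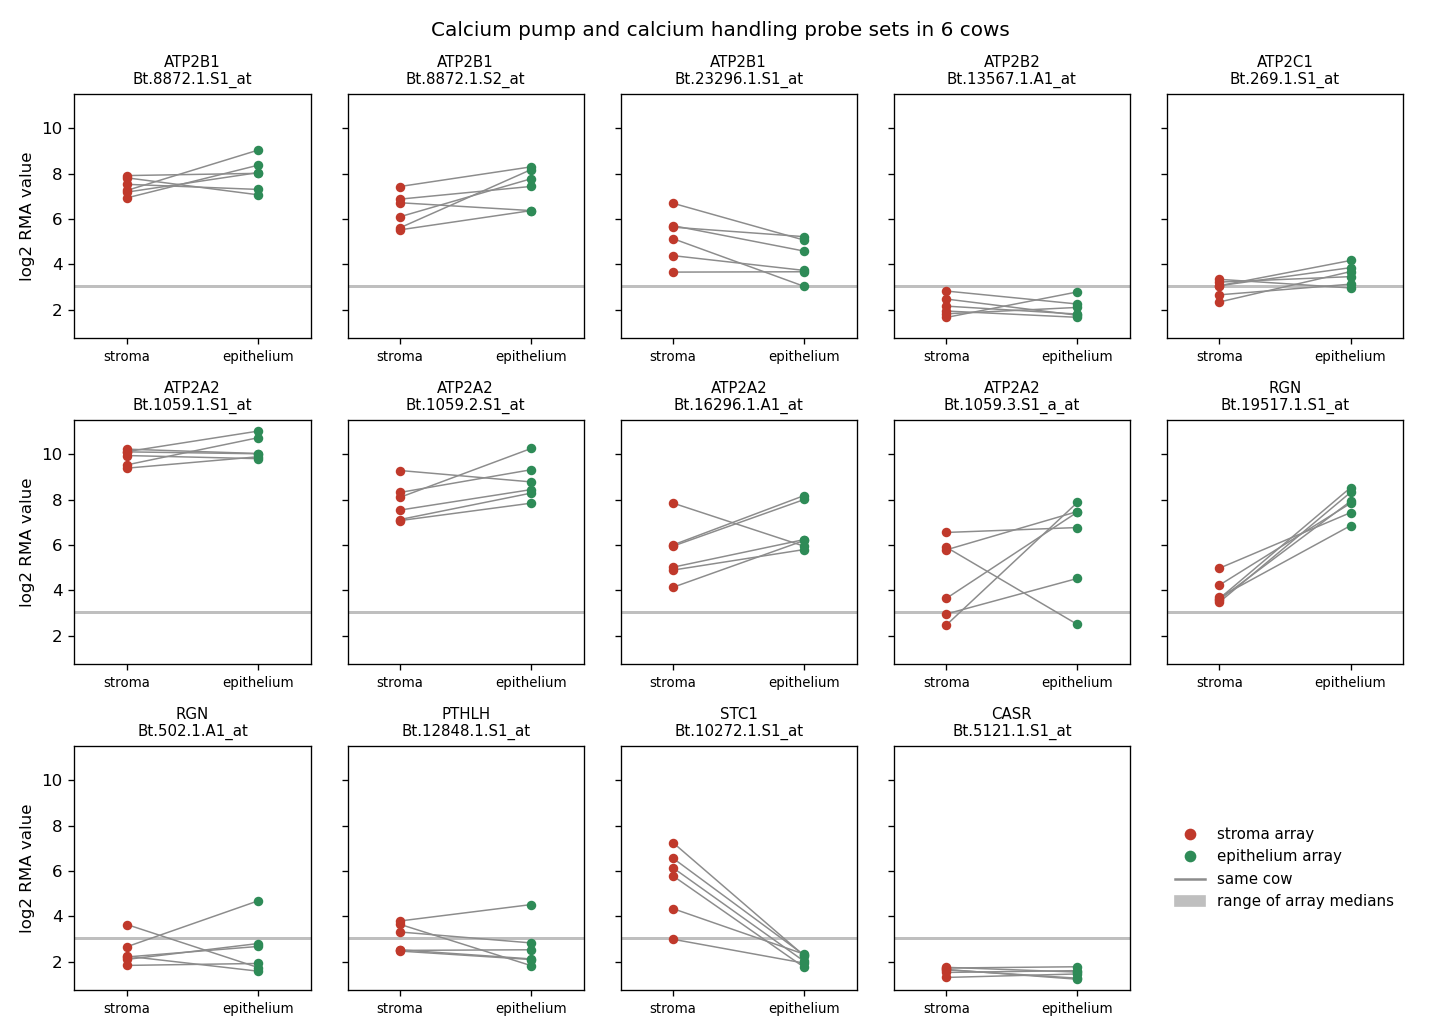
Log2 RMA values of the 14 probe sets on each array, stroma at left and epithelium at right of each panel. Points are single arrays, lines join the arrays of 1 cow, and the grey band is the range of the 12 array medians, 2.95 to 3.08. The tested RGN probe set (the first of its 2 panels) and STC1 have no overlap between the tissues.

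The captures differed as their labels say. KRT8, a keratin of luminal cells, averaged 2.98 in stroma and 5.99 in epithelium (difference −3.01, limma adjusted p = 0.00151), EPCAM, an epithelial adhesion protein, 5.66 and 9.70 (−4.04, adjusted p = 0.00176), and VIM, the intermediate filament of mesenchymal cells, 9.17 and 5.66 (3.51, adjusted p = 0.000620). KRT8 was bright enough to be tested only through epithelium. The mean of 14 luminal markers was 3.94 to 5.31 in stroma and 7.24 to 8.04 in epithelium. Probe sets for added polyadenylated control RNA were uneven, averaging 3.88 to 9.99 on stromal arrays and 2.91 to 6.05 on epithelial arrays, and were brightest on the stromal arrays of cows 5 and 6. In tissue pieces such as these, fewer cells of a type and less RNA per cell cannot be told apart.

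Among the plasma membrane pumps, ATP2B1 was measured by 3 probe sets, all above the array median on all 12 arrays. The brightest ran between 6.93 and 7.92 in stroma (median 7.40) and between 7.07 and 9.04 in epithelium (median 8.03). The groups overlapped, and the value was lower in stroma in 4 of 6 cows. The difference was −0.53 (SE 0.43, 95% interval −1.51 to 0.45, limma adjusted p = 0.497), an interval that spans more than a doubling toward epithelium.

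The other ATP2B1 probe sets pointed in opposite directions. The second ran between 5.52 and 7.44 in stroma (median 6.41) and between 6.37 and 8.31 in epithelium (median 7.61), a difference of −1.03 (SE 0.43, limma adjusted p = 0.193) with 5 of 6 cows lower in stroma. The dimmest ran between 3.66 and 6.70 in stroma (median 5.39) and between 3.02 and 5.22 in epithelium (median 4.16), a difference of 0.99 (SE 0.39, limma adjusted p = 0.168) with 5 of 6 cows higher in stroma. None of the 3 passed, so no direction is given for ATP2B1. Set against each other within cows, the tissue difference of the second probe set minus that of the dimmest was negative in 6 of 6 cows, at −2.02 ± 1.34 (SD). The exact two-sided sign-flip p was 0.0312, the smallest that 6 cows allow, and 0.156 after adjustment over the 10 pairs of probe sets of 1 gene that were compared.

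ATP2B2, the pump known from milk secretion in mice, had 1 probe set, outside the tested ones. It read between 1.65 and 2.82 in stroma (median 2.04) and between 1.66 and 2.78 in epithelium (median 1.95), below the array median on all 12 arrays. Values this low were not read as expression in either tissue, and its difference of 0.085 (SE 0.28, limma adjusted p = 0.903) changed sign when cow 4 or cow 5 was left out.

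ATP2C1, the Golgi pump, also lay outside the tested probe sets. It ran between 2.33 and 3.34 in stroma (median 3.05) and between 2.96 and 4.17 in epithelium (median 3.57), and lay above the array median on 3 of 6 stromal arrays and 5 of 6 epithelial arrays. Cow 3 alone was higher in stroma (3.34 against 2.96). The groups overlapped, and the difference of −0.60 (SE 0.27, 95% interval −1.23 to 0.033) had a limma adjusted p of 0.318.

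ATP2A2, the pump of the endoplasmic reticulum, had 4 tested probe sets all but the dimmest of them above the array median on every array. The brightest ran between 9.40 and 10.23 in stroma (median 10.03) and between 9.82 and 11.03 in epithelium (median 10.04). The medians were nearly equal, cows split 3 to 3, and the difference was −0.37 (SE 0.36, 95% interval −1.18 to 0.45, limma adjusted p = 0.582).

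The dimmer ATP2A2 probe sets were lower in stroma in 5 of 6 cows each, but none passed. The second averaged 7.91 ± 0.844 in stroma and 8.83 ± 0.861 in epithelium (SD, n = 6 each), a difference of −0.92 (SE 0.40, limma adjusted p = 0.213), with cow 4 the exception. The third averaged 5.64 ± 1.29 in stroma and 6.73 ± 1.07 in epithelium, a difference of −1.09 (SE 0.57, limma adjusted p = 0.287), and cow 3 alone was higher in stroma (7.85 against 5.95). Without cow 3 this probe set passed, at −1.69 (limma adjusted p = 0.0426), the 1 setting of 15 in which it was called.

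The dimmest ATP2A2 probe set was also the most scattered. It ran between 2.46 and 6.56 in stroma (median 4.71) and between 2.49 and 7.88 in epithelium (median 7.11), and the difference within a cow reached −5.42 in cow 2 and 3.41 in cow 6. Its fitted difference of −1.55 (SE 0.99) had a limma adjusted p of 0.383. Over 6 pairs of ATP2A2 probe sets, the tissue differences of 1 probe set and another had exact sign-flip p between 0.250 and 0.875, so the 4 probe sets were not shown to disagree.

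RGN, a cytosolic calcium-binding protein that also acts as a lactonase, gave the clearest difference. Its tested probe set ran between 3.47 and 4.98 in stroma (median 3.66) and between 6.86 and 8.53 in epithelium (median 7.89). The highest stromal array, that of cow 2, lay below the lowest epithelial array, that of cow 5, and the probe set was above the array median on all 12. RGN was lower in stroma in 6 of 6 cows, by 2.46 to 4.90 within a cow. The fitted difference was −3.89 (SE 0.43, 95% interval −4.86 to −2.91), or about 14.8-fold lower in stroma, with a limma adjusted p of 0.000904. Stromal values of cows 3 to 6, at 3.47 to 3.69, lay not far above the array medians of 2.95 to 3.08, so the fold is approximate.

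The call for RGN held under all 16 alternatives, with differences between −4.17 and −3.69 and limma adjusted p between 1.06e-05 and 0.00990. Without cows 5 and 6, whose stromal arrays had the brightest control RNA, the difference was −3.83 (adjusted p = 0.00990). The second RGN probe set did not show the difference. It lay outside the tested probe sets, at 1.83 to 3.64 in stroma (median 2.22) and 1.58 to 4.68 in epithelium (median 2.29), and was above the array median on 1 of 6 arrays of each tissue. Its difference was −0.12 (SE 0.48, limma adjusted p = 0.921). The difference of the tested probe set minus that of the second was negative in 6 of 6 cows, at −3.77 ± 1.86 (SD, exact sign-flip p = 0.0312, 0.156 after adjustment over the 10 pairs). The result for RGN therefore stands on 1 probe set.

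RGN followed the luminal markers in direction. Of the 14 tested luminal markers 13 were lower in stroma and 0 higher, and their mean differed by −3.14 ± 0.451 (SD, n = 6 cows, exact sign-flip p = 0.0312, 0.0357 after adjustment over 8 marker lists). Between 9 and 13 of the 14 were still above the array median on stromal arrays. Within stroma the order differed: cow 2 had the highest RGN (4.98) and the lowest luminal mean (3.94), while cow 4 had the highest luminal mean (5.31) with RGN at 3.63. The part of luminal cells in the stromal RGN signal was not tested.

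STC1, a secreted glycoprotein first known as a calcium-lowering hormone of bony fish, ran the other way. It read 7.25, 6.14, 4.34, 6.56, 2.98 and 5.78 in the stroma of cows 1 to 6, against 2.25, 2.01, 2.32, 2.28, 1.93 and 1.74 in their epithelium. All epithelial values lay below the array median and close together, while stromal values were spread widely and lay above the array median in 5 cows. Cow 5 was the exception, with a stromal value below its array median and still above every epithelial value. STC1 averaged 5.51 ± 1.57 in stroma and 2.09 ± 0.233 in epithelium (SD, n = 6 each), a difference of 3.42 (SE 0.56, 95% interval 2.15 to 4.69, limma adjusted p = 0.00628), higher in stroma in 6 of 6 cows.

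Because epithelial STC1 lay below the median of every array, where values were not read as expression, the difference gives no exact fold. The call held in each of the 14 alternatives in which STC1 was tested, with differences of 3.10 to 3.89 and limma adjusted p between 0.00132 and 0.0273. It was 3.89 without cow 5 and 3.85 without cows 5 and 6 (limma adjusted p = 0.0138). In the 2 stricter filters on dim probe sets, STC1 was not among the probe sets tested.

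**Figure D2:**
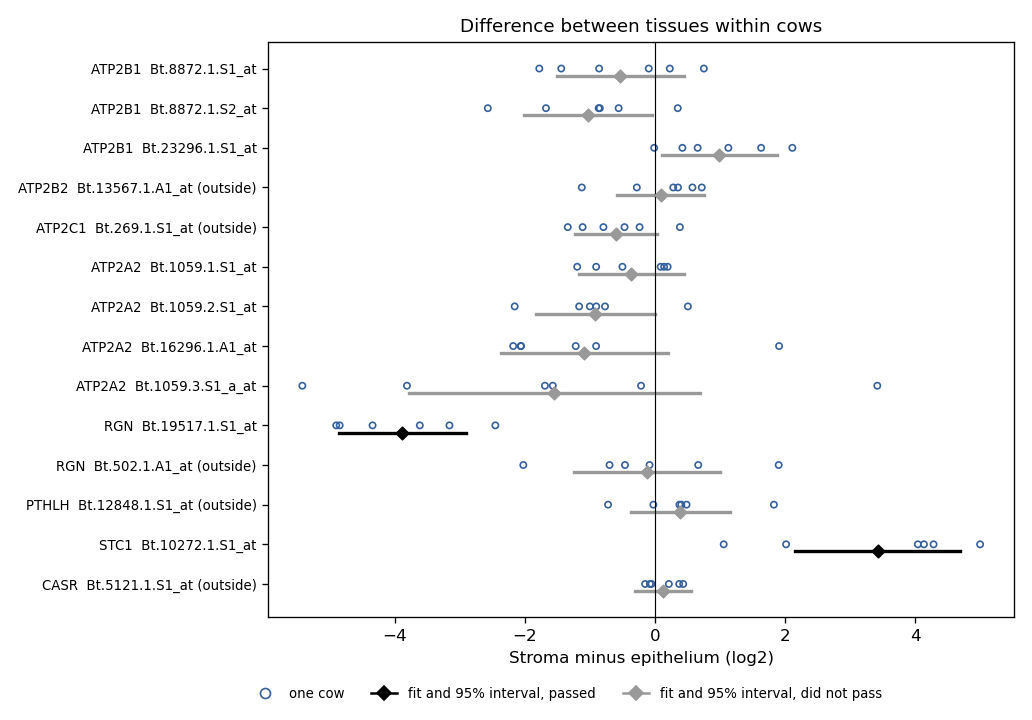
Stroma minus epithelium (log2) of the 14 member probe sets. Open circles are the 6 cows and diamonds with bars are the fitted difference and its 95% interval, black where the adjusted p was under 0.05; outside marks probe sets read from the fit with no filter. The tested RGN probe set at −3.89 and STC1 at 3.42 passed, and the pumps did not.

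Markers of several stromal cell types, like STC1, were higher in stroma. Of 9 endothelial markers only 4 were tested. The mean of these 4 was 6.49 to 7.40 in stroma and 2.70 to 3.19 in epithelium, with 3 of 4 higher in stroma, although vessels were avoided at capture. All 4 lay above the array median on every stromal array, and 1 or 2 did on each epithelial array. Their epithelial mean of 2.94 was under the average of about 3.57 needed for a test, so some of them were tested only through stroma. Markers of the other lists could also enter the test through 1 tissue. The direction of these lists is therefore given as a description. The mean of 11 fibroblast markers was 8.95 to 9.63 in stroma and 3.18 to 5.24 in epithelium, with 11 of 11 higher in stroma. The stromal array of cow 5 had the lowest STC1, the lowest endothelial mean (6.49) and the lowest fibroblast mean (8.95). The same array had the brightest control RNA (9.99) and the lowest median of tested probe sets, 4.75, against 5.09 to 5.46 on the other 11 arrays. Among the other cows the order differed in part. Cow 1 had the highest stromal STC1 (7.25) and endothelial mean (7.40), but its fibroblast mean (9.15) was the lowest after that of cow 5. Cow 3 had the second lowest STC1 (4.34) with an endothelial mean of 7.28. The B and plasma cell list (2 of 7 markers tested, and 2 higher in stroma) was also higher in stroma. So was the smooth muscle and pericyte list (3 of 6 tested, and 2 higher). Markers that were not tested have no direction here. The myoepithelial list, with 6 of 8 markers tested and 0 called, had a mean difference of 0.84. The monocyte and macrophage list, with 3 of 7 tested and 0 called, had one of 0.69 (exact sign-flip p = 0.0312 and adjusted p = 0.0357 for each of these lists). Taken as list medians these gave adjusted p of 0.167 and 0.321 (exact sign-flip test). The T and NK cell list, with 4 of 7 markers tested, differed by 0.20 (adjusted p = 0.469, exact sign-flip test). The part of any of these cells, or of array quality, in the STC1 signal was not tested.

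**Figure D3:**
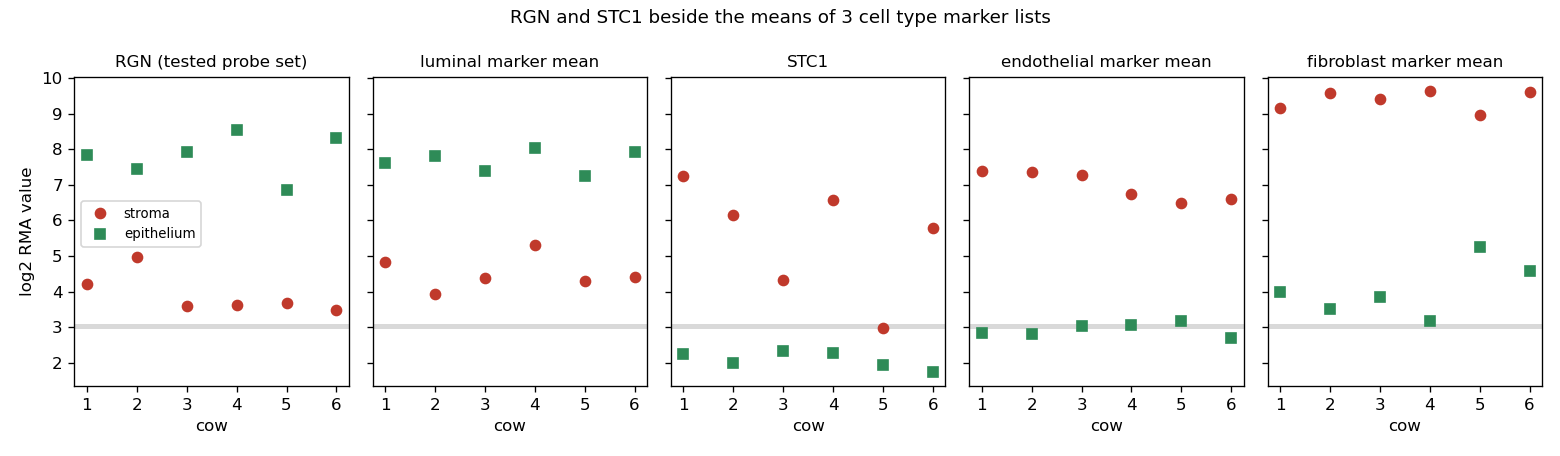
Log2 RMA values by cow for RGN, the mean of 14 luminal markers, STC1, the mean of 4 endothelial markers and the mean of 11 fibroblast markers. Red circles are stroma, green squares are epithelium and the grey band is the range of array medians. Stromal STC1 spans 2.98 to 7.25, while the 6 stromal fibroblast means lie between 8.95 and 9.63.

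STC2, the second stanniocalcin, had no probe set that carries its symbol, so none was set beside STC1. The remaining members of the hormone axis were dim. PTHLH, outside the tested probe sets, ran between 2.46 and 3.79 in stroma (median 2.91) and between 1.82 and 4.52 in epithelium (median 2.32). It lay above the array median on 3 of 6 stromal arrays and on 1 of 6 epithelial arrays, that of cow 2 (4.52). The difference was 0.39 (SE 0.33, 95% interval −0.38 to 1.16, limma adjusted p = 0.589), with 4 of 6 cows higher in stroma.

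PTH1R, the receptor of PTHLH, ran between 1.73 and 3.20 in stroma (median 2.06) and between 1.36 and 2.01 in epithelium (median 1.82). It was above the array median on 1 array in all, the stroma of cow 5, and its difference of 0.45 (SE 0.21) had a limma adjusted p of 0.331 outside the tested probe sets. CASR read between 1.30 and 1.75 in stroma (median 1.64) and between 1.22 and 1.77 in epithelium (median 1.49), below every array median. With both tissues this low, no direction is given for CASR (0.12, SE 0.19, limma adjusted p = 0.776).

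The wider calcium machinery was read from 6 lists that hold 134 genes in all, of which 83 had a probe set with 1 symbol and 53 were tested, each by its brightest tested probe set. Of the 53, 5 were higher in stroma and 5 were lower (18.9%), against 9.1% of the 5222 tested genes, of which 4.48% were higher and 4.62% lower. A probe set was tested only if it averaged about 3.57 or more over the 12 arrays. STC1, CALCRL, FKBP10 and RAMP2 got there only through stroma, and ITPR2 only through epithelium. Their entry was not independent of the tissue, and the lists were chosen with earlier results known. The share called is therefore given as a description. The median difference was −0.40 over the calcium genes and −0.20 over all tested genes. With the median tested value of every array set to 0, these became −0.23 and −0.023.

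**Figure D4:**
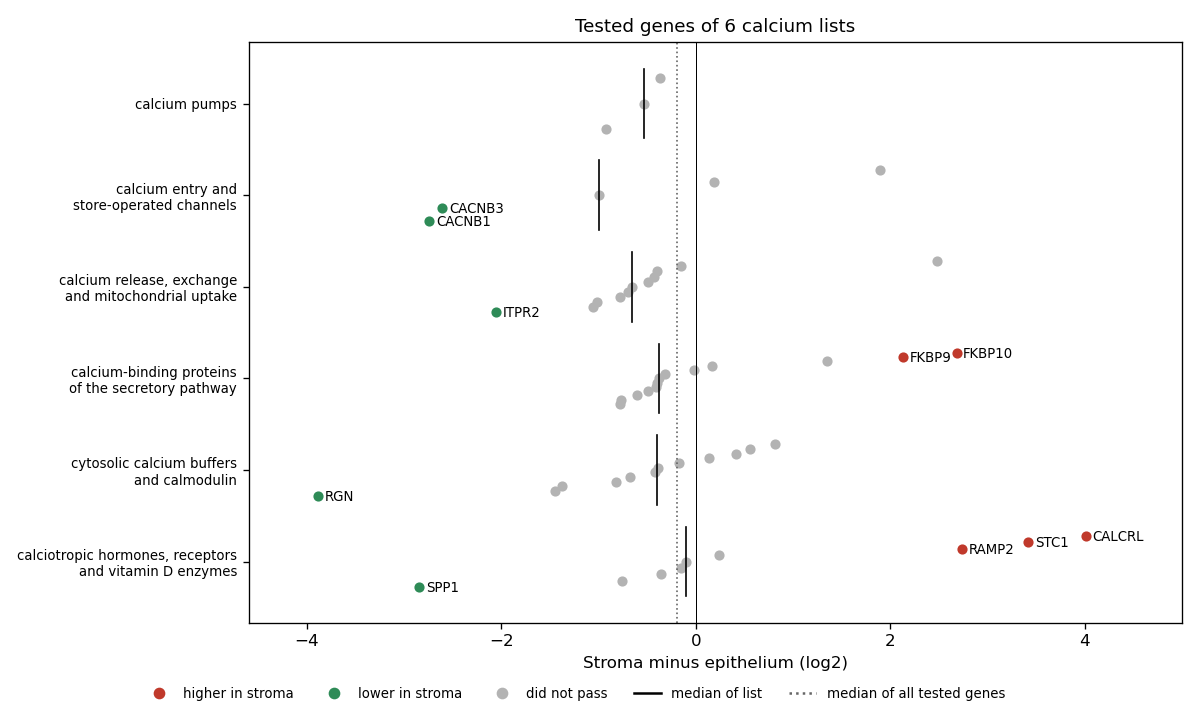
Stroma minus epithelium (log2) of the 53 tested genes in 6 calcium lists. Points are genes, in red or green where they passed and grey where they did not, black bars are list medians and the dotted line is the median of all tested genes (−0.20). RGN and STC1 lie among the most distant points, and no pump is called.

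Pumps as a list had 0 of 3 tested genes called, each read from its brightest probe set (limma, and 0 with an unadjusted p under 0.05), and a median of −0.53. Among the dimmer tested pump probe sets, unadjusted limma p was 0.0419 and 0.0332 for the second and the dimmest of ATP2B1, which point in opposite directions, and 0.0498 for the second of ATP2A2. The list also holds ATP2B4, another plasma membrane pump, at 3.35 in stroma and 4.27 in epithelium (−0.92, SE 0.67, limma adjusted p = 0.450). ATP2B4 was above the array median on 3 of 6 stromal arrays and turned to 0.23 without cows 5 and 6.

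Of 5 tested entry channel genes, 2 were lower in stroma and 0 higher, with a median of −0.99. Both were beta subunits of voltage-gated channels, which help the pore subunit to the membrane. CACNB1 was at 4.60 ± 1.39 in stroma and 7.34 ± 0.596 in epithelium (−2.74, limma adjusted p = 0.00962), and its other probe sets, both outside and not called, had differences of the opposite sign, 1.31 and 0.27. Those probe sets were dim, above the array median on 0 of 6 epithelial arrays and on 1 and 2 of 6 stromal arrays. CACNB3 was at 4.79 ± 0.959 in stroma and 7.40 ± 0.762 in epithelium (−2.61, limma adjusted p = 0.00722).

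The store-operated pair that refills emptied stores did not pass. ORAI1, the channel, averaged 4.35 in stroma and 5.34 in epithelium (−0.99, limma adjusted p = 0.177), lower in 5 of 6 cows, and STIM1, its sensor in the endoplasmic reticulum, 6.98 and 6.79 (0.19, limma adjusted p = 0.886).

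In the list of release, exchange and mitochondrial uptake, 1 of 11 genes was lower in stroma and 0 higher, with a median of −0.65. That gene was ITPR2, an inositol trisphosphate receptor that releases stored calcium, at 3.36 ± 0.966 in stroma and 5.41 ± 1.10 in epithelium (−2.06, limma adjusted p = 0.0187). ITPR2 was bright enough to be tested only through epithelium. Its second probe set, outside, differed by −0.59 (limma adjusted p = 0.492). Leaving out cow 1, 2 or 4 ended the call, at differences of −2.13, −1.84 and −1.91 (limma adjusted p = 0.0520, 0.0628 and 0.0610), as did leaving out cows 5 and 6 (−2.15, 0.0627). With the mean over a gene's tested probe sets in place of the brightest, 1 gene of this list was called higher in stroma.

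Of 13 tested calcium-binding proteins of the secretory pathway, 2 were higher in stroma and 0 lower, with a median of −0.38. These were FKBP10 (5.46 ± 0.948 in stroma, 2.77 ± 0.730 in epithelium, difference 2.68, limma adjusted p = 0.00403) and FKBP9 (6.50 ± 0.718 and 4.38 ± 1.41, difference 2.13, limma adjusted p = 0.0165). Both are prolyl isomerases of the endoplasmic reticulum with calcium-binding motifs, and FKBP10 is known for its work on collagen. FKBP10 was bright enough to be tested only through stroma, and it lay above the array median on 2 of 6 epithelial arrays. The FKBP9 call was lost without cow 2 (limma adjusted p = 0.0578) and without cows 5 and 6 (0.105). Among the 11 that did not pass was CALR (calreticulin), the main calcium buffer of the endoplasmic reticulum, at 8.21 in stroma and 8.99 in epithelium (limma adjusted p = 0.371). With the mean over a gene's tested probe sets, 1 gene of this list was called lower in stroma.

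Of 12 tested cytosolic buffers, calmodulin genes and calcium-dependent enzymes, RGN was the 1 called, and the median was −0.40. Among 9 tested genes of the list of calciotropic hormones, receptors and vitamin D enzymes, 3 were higher in stroma and 1 lower. The called genes were STC1, CALCRL, RAMP2 and SPP1. PTHLH, PTH1R and CASR were outside the tested probe sets, and CALCR and VDR had no probe set of a single symbol, so the count does not cover them. The median of −0.10 became 0.076 after that centring, so the list has no settled direction.

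CALCRL, a receptor that forms the adrenomedullin receptor with RAMP2, was at 5.82 ± 0.856 in stroma and 1.81 ± 0.374 in epithelium (4.01, limma adjusted p = 0.000951), and its second tested probe set differed by 4.14. Both CALCRL probe sets lay above the array median on 0 of 6 epithelial arrays and were bright enough to be tested only through stroma, so, as for STC1, the difference gives no exact fold. RAMP2 was at 6.13 ± 1.44 in stroma and 3.39 ± 0.795 in epithelium (2.74, limma adjusted p = 0.0264), higher in 5 of 6 cows. RAMP2 too was bright enough to be tested only through stroma. The RAMP2 call was lost with no filter (limma adjusted p = 0.0681) and without cow 1 (0.0711), 2 (0.0763), 3 (0.0598), 4 (0.0803) or 6 (0.0527). Both genes, like STC1, were higher in the tissue in which the means of the endothelial (4.04), fibroblast (5.33), B and plasma cell (6.92) and smooth muscle and pericyte (1.69) lists were higher. These means cover tested markers only, and some of the endothelial ones were tested only through stroma. The part of these cells in the 2 signals was not tested.

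SPP1 (osteopontin), a secreted phosphoprotein of bone and milk, was the 1 that was lower in stroma, at 7.57 ± 2.34 in stroma and 10.4 ± 1.20 in epithelium (−2.85, limma adjusted p = 0.00864). It was lower in 6 of 6 cows, but the call was lost with no replicate block (limma adjusted p = 0.0774) and with the cow as a random block (0.0519).

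The genes most like RGN over the 12 arrays, among the 5221 other tested genes, were RHPN2 (Pearson r = 0.951), C3H1orf210 (r = 0.948) and CYB561 (r = 0.942). The arrays form 2 tissue groups, so these values of r include the tissue difference. Within tissues, over 6 arrays each, r with RGN was 0.026 in stroma and 0.56 in epithelium for RHPN2, 0.886 and 0.497 for C3H1orf210, and 0.492 and 0.513 for CYB561.

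The genes most like STC1 were AQP1, a water channel (r = 0.957), CD93, a surface lectin found on endothelial cells (r = 0.945), and FHL1, a LIM domain protein (r = 0.942). Within the 6 stromal arrays AQP1 had r = 0.908, CD93 0.804 and FHL1 0.865 with STC1, and within the 6 epithelial arrays, where STC1 was below the array median, −0.778, 0.013 and −0.320. These are descriptions of arrays that share tissue, and of genes picked for their likeness.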

How the data were processed

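RNA of laser-captured stroma and epithelium of 6 cows was amplified with NuGen WT Ovation Pico and hybridized to Bovine Affymetrix GeneChips, 12 arrays in all. The deposited values are log2 expression. The authors obtained them by robust multiarray averaging (RMA, version not given in the sources used here), whose quantile step ran across 24 arrays that include these, so the scale depends on arrays not used here. A probe set's level depends on its probes and was not set against that of another. The number of arrays limits the precision.

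Probe sets were named through the platform annotation, updated by gene ID: 13318 had 1 symbol, 86 several and 10724 none, and 112 controls were left out. Tissue was tested with limma 3.58.1 in R 4.3.3 (lmFit and eBayes, with the data.table package, version 1.17.8) on the 10031 brightest probe sets by their mean over the 12 arrays, a number taken from the methods, which kept probe sets by detection calls that were not used here. The cow was a fixed block, p was adjusted by Benjamini-Hochberg and probe sets were called under 0.05. Probe sets outside were read from the same fit over all 24016. A gene was its brightest tested probe set. Same-numbered arrays come from 1 animal per the series design; their deviations from the tissue means correlated at 0.026 to 0.20.

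Members and lists were chosen with earlier results of these data known. Named were all members, in each list up to 4 called genes with the largest difference, fixed partners of the members (without CALCR, VDR, ATP2A3 and ATP2C2, for which 0 probe sets of a single symbol were found), KRT8, EPCAM and VIM, and the 3 genes most like each called member. CALR was named after its values were seen. The alternatives were no block, a random block, a trended robust prior, 3 other filters, 2 other normalizations, the mean over a gene's tested probe sets, the median of a marker list, each cow left out, and cows 5 and 6 left out together, the last chosen after seeing the data. In data simulated for this comparison on 10031 probe sets, 50 at each change, 0% of changes of 1 on the log2 scale were called, 30% of 2, 88% of 3 and 94% of 4, with 7 false among 113 calls. The data themselves gave 932 calls, so the adjusted threshold was stricter in the simulation and its shares may be too low.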

Additional observations from a re-analysis of the deposited data

Results flagged for a closer look

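PTHLH on the epithelial array of cow 2 read 4.52, and the nearest of the other 5 epithelial arrays read 2.82, a gap of 0.627 of the whole range. That cow's stroma also had the highest PTHLH of the 6 stromal arrays, 3.79. It was 1 of 28 groups of 6 arrays examined, and chance flags about 1 group in 20.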

How the results depend on the processing

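With no replicate block, 481 probe sets were higher in stroma and 462 lower, 2 members were called, and the adjusted p was 1.71e-05 for RGN and 0.00209 for STC1 (limma). The calls of these 2 members were kept wherever both were tested. Over the tested probe sets, 455 were higher and 477 lower; the counts were 239 and 274 among the brightest 5000, 331 to 450 and 267 to 404 with each cow left out, and lower calls fell to 245 without cows 5 and 6. Calls were 3.38% with no filter, 6.02% to 8.51% with each cow left out and 6.03% without cows 5 and 6. Of all calls 48.8% were higher in stroma, and 58.8% after centring each array. Member probe sets called numbered 1 among the brightest 5000 and 1 among those above the array median on 8 arrays, where STC1 was not tested, and 2 to 3 with each cow left out. Member genes called numbered 1, 1 and 2. Calcium genes higher in stroma numbered 1, 3 and 3 to 6 in the same settings. With the mean over a gene's tested probe sets, 6 calcium genes were higher and 6 lower. The third ATP2A2 probe set lay between −1.69 and −0.87 with each cow left out. Signs turned for ATP2B2 (−0.041 to 0.33 with each cow left out, −0.10 without cows 5 and 6), the second RGN probe set (0.055 centred, −0.52 to 0.26 with each cow left out), ATP2B4 (0.23 without cows 5 and 6) and STIM1 (−0.29 to 0.61 with each cow left out, −0.64 without cows 5 and 6), none called; the cause was not tested. As medians in place of means, marker lists kept their direction: luminal −3.70, fibroblast 5.67, endothelial 4.51, smooth muscle 1.59 and B cell 6.92 kept the smallest exact sign-flip p (0.0312), at an adjusted p equal to the threshold, while myoepithelial (0.75) and macrophage (0.65) lists had adjusted p of 0.167 and 0.321. Changes of 2 or less on the log2 scale were mostly missed in simulated data, where fewer probe sets changed and the adjusted threshold was stricter.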
